A study of Mus musculus with 4 samples.

Results

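The genes described here are the mouse zinc finger genes that carry a serial symbol: Zfp, Zkscan or Zbtb followed by a number, and Zscan. They were chosen by the symbol alone, with Zbtb16 left out, and 76 of the 5614 genes hit in either of 2 mutant libraries fit that rule. Library 1 held reads for 50 of them and library 2 for 44. The libraries were made in haploid cells that resemble neural stem cells and were grown out of haploid embryonic stem cells of the 129Sv background in N2B27 medium with FGF2, EGF, LDN193189, SB431542 and a ROCK inhibitor. All cells of both libraries received the same piggyBac gene trap and a codon optimized transposase and were kept under G418, so there is no group without the trap. Splinkerette PCR amplified the junctions between transposon and genome for sequencing, and each library is 1 table of reads per gene that pools 2 samples. The labels state no difference in treatment between the libraries, and genomic DNA cannot show by marker genes which cell type was present.

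Zinc finger proteins of this kind fold short peptide loops around a zinc ion, and a row of such loops reads DNA. Many Zfp proteins carry a KRAB domain that recruits Trim28 and the methyltransferase Setdb1, which together silence retroelements and imprinted regions. Zkscan and Zscan proteins carry a SCAN domain for pairing, and Zbtb proteins a BTB domain that binds corepressors. The KRAB genes lie in clusters of near copies, so reads from the short exons of one gene can be hard to place, and how such reads were treated is not given in the sources used here. A gene trap is a cassette that interrupts a transcript. G418 keeps the cells in which the cassette is expressed, and in a haploid cell no intact allele remains.

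Library 1 listed 4184 genes with 55442 nonredundant reads, and library 2 listed 3168 genes with 48750. The count of nonredundant reads of a gene is its main value here, and redundant reads are the larger count that includes copies. Reads are PCR products and do not count insertions or cells, and with 1 table per library no value has a replicate check. Intervals are exact 95% intervals and cover counting error only. Genes with 1 or 2 reads are thinly supported: 8 genes of the Y chromosome were listed with at most 2 reads each, beside 195 genes of the X chromosome, although a haploid genome has either an X or a Y. Of the 76 zinc finger genes, 42 had 1 read in all and 13 had 2.

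In library 1, Zfp804b had the most reads of the family. It encodes a relative of Zfp804a, whose human gene lies at a risk locus for schizophrenia. Zfp804b had 286 reads in library 1 and 1 read in library 2. Its share of reads was 251 times higher in library 1 (95% interval 44.8 to 9967), and it ranked 33 among all genes there. Zfp827, whose human counterpart recruits the NuRD complex to telomeres, had 277 reads in library 1 and 1 read in library 2. That is a share 244 times higher in library 1 (43.4 to 9655). Both genes therefore stood among the most read of library 1 and were nearly absent from library 2.

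Zfp407, which acts in fat cells on genes of glucose uptake, had 79 reads in library 1 and 2 in library 2, a ratio of 34.7 (9.30 to 292). Zfp708, a KRAB zinc finger gene that in mouse silences retroelements of the RMER19B class, had 57 reads in library 1 and none in library 2. With the 0 set to the 3 reads that a count of 0 allows, its share was 16.7 times higher in library 1. Such a ratio takes the other count as exact and has no interval, so it is not a lower limit. Zfp708 overlaps another gene, Rslcan18, which had 1 read in library 1. Zfp536, a repressor of neuronal differentiation, had 10 reads in library 1, and library 2 did not list it. With its 0 set to 3 reads as well, its ratio is 2.93, short of the 10-fold used here as the limit for a difference. These 5 genes were all the zinc finger genes with 10 or more reads in library 1.

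In library 2, a different group of 5 genes led. Zfp618, whose human counterpart works with UHRF2 on hydroxymethylated DNA, had 378 reads in library 2 and 3 reads in library 1. Its share was 143 times higher in library 2 (48.7 to 698), and it ranked 20 among all genes of that library. Zfp64, whose human counterpart drives transcription of the KMT2A gene in leukaemia, had 185 reads in library 2 and none in library 1. With that 0 set to 3 reads, the ratio is 70.1. Thus the member with most reads in all was a gene of library 2.

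Zfp704 and Zfp958 had 169 reads each in library 2. Zfp704 had 1 read in library 1, which gives a share 192 times higher in library 2 (34.0 to 7636). Zfp958 was absent from library 1, and with that 0 set to 3 reads its ratio is 64.1. Zfp532, whose human counterpart is a partner in gene fusions of NUT carcinoma, had 95 reads in library 2 and 1 in library 1, a ratio of 108 (18.9 to 4312). Below these 5 genes library 2 had a gap: the next zinc finger genes, Zfp423 and Zfp507, had 3 reads each. Over all genes, 496 of the 3168 listed in library 2 had 4 to 94 reads, bounds that were taken from the zinc finger genes themselves.

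**Figure D1:**
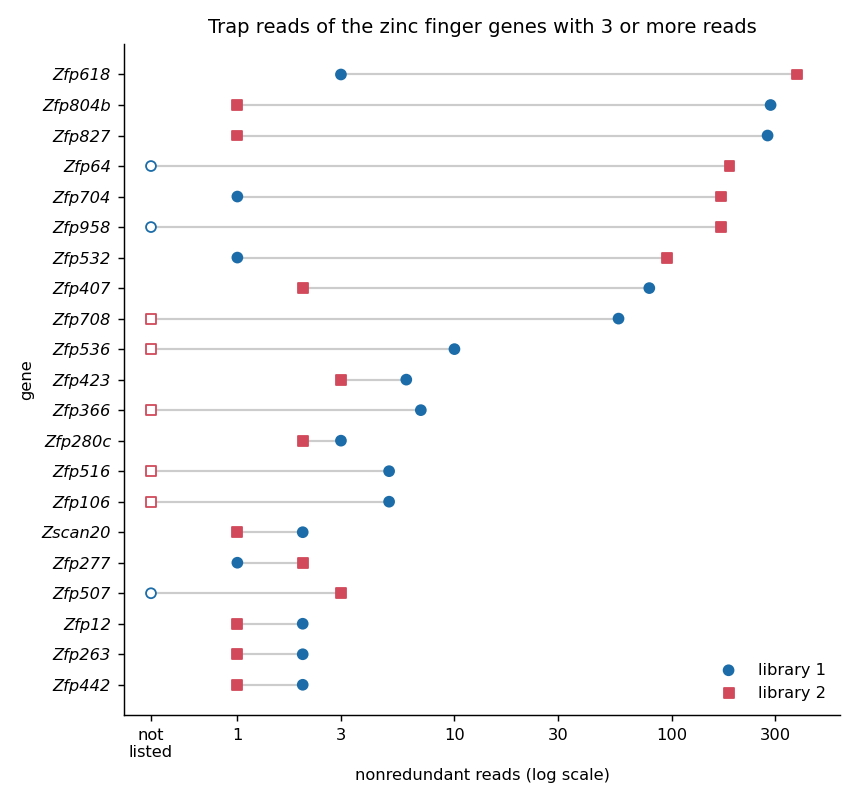
Nonredundant reads (log axis) of the 21 zinc finger genes with 3 or more reads in all, in library 1 (blue circles) and library 2 (red squares); open symbols at the left stand for genes not listed in that library. The long lines at the top join counts of 57 to 378 reads in one library to at most 3 reads in the other.

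The 4 members with most reads are shown by the stretch around their annotated start, because piggyBac joins the genome at the letters TTAA, a word that reads alike on both strands. The windows are from RefSeq, build GRCm38.p6, and run from 250 bases before to 50 bases after the start. Zfp804b is at chr5:7344329-7344628 (minus strand), Zfp827 at chr8:79028187-79028486 (plus strand), Zfp618 at chr4:62965317-62965616 (plus strand) and Zfp64 at chr2:168955538-168955837 (minus strand). Capitals mark TTAA.
Zfp804b: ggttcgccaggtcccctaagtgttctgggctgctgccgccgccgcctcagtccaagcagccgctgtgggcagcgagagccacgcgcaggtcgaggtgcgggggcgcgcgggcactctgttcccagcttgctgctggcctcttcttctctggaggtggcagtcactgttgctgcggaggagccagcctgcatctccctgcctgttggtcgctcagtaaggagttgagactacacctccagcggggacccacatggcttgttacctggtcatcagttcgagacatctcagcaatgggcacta
Zfp827: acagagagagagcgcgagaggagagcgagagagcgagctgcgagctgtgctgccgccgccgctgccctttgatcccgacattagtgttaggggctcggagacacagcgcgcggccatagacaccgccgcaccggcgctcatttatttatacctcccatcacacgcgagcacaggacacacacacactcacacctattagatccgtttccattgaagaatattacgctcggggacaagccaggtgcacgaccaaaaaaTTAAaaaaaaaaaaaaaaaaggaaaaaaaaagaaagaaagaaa
Zfp618: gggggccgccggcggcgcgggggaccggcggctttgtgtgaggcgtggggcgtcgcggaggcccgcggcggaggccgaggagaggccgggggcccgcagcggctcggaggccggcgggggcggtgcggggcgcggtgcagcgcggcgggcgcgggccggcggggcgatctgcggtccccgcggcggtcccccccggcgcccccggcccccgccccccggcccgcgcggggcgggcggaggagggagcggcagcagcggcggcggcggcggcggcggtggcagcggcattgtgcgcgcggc
Zfp64: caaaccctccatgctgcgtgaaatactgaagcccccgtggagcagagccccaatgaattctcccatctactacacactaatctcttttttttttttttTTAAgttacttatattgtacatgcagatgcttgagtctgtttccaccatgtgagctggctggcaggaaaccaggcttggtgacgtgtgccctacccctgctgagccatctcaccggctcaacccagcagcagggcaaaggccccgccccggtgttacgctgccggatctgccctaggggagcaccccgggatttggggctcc

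Zfp827 and Zfp64 each held 1 such word in the window, and Zfp804b and Zfp618 held 0. Windows could be matched for 59 of the 76 members. Among their 76 windows (some genes have several), 37 held TTAA, or 48.7%, against 52.4% of all 32851 windows of this length. The windows of annotated genes with a member symbol that were in neither library held it in 45.7% of cases. The deposited tables give no insertion positions, so where in these genes the reads lie is not known.

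The members in both libraries were mostly weak in at least 1 of them. Of the 76 genes, 18 were in both libraries, 32 in library 1 alone and 26 in library 2 alone. The 18 made up 36.0% of the members in library 1 (22.9 to 50.8), beside 41.5% for all its listed genes. They made up 40.9% of the members in library 2 (26.3 to 56.8), beside 54.9% for all its listed genes. In each of the 18, the lower of the 2 counts was 3 reads or fewer. Low counts were general: of all 1738 genes in both libraries, 326 had 3 or more reads in each, as did 2 of the 18 members. Of the 5 members with 10 or more reads in a library, 0 reached that level in the other (upper bound 52.2%, for each library). Over all listed genes 43 did, which is 8.62% of those at that level in library 1 and 14.6% in library 2, so 5 genes are too few to show a difference.

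A 10-fold higher share in library 1 was seen for 4 members, or 5.26% (1.45 to 12.9), beside 5.45% of all listed genes. These were Zfp804b, Zfp827, Zfp407 and Zfp708. By redundant reads 8 members (10.5%) passed this fold, beside 11.6% of all. The added ones were Zfp516, Zfp280d, Zfp638 and Zscan20, which had 1 to 5 nonredundant reads in library 1, so copies of few reads carried them past it. The same fold towards library 2 was seen for 5 members, or 6.58% (2.17 to 14.7), beside 3.31% of all listed genes. These were Zfp618, Zfp64, Zfp704, Zfp958 and Zfp532. By redundant reads 6 members (7.89%) passed it, beside 4.99% of all, and the added one, Zfp462, had 1 nonredundant read in library 2. Both shares of members by nonredundant reads lie close to the shares of all genes for intervals of this width. Most members could not reach the limit, since 62 of the 76 had at most 3 reads in each library. Of the 14 members above 3 reads in a library, 9 (64.3%) were past 10-fold in either direction, against 37.2% of the 1323 such genes of all kinds. All 9 had 50 or more reads in a library. With 14 genes and no interval for this share, it cannot be said to differ from that of all genes. These comparisons are between 2 pools of reads.

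Next came 11 members with 3 to 9 reads in all. Zfp423, which with Ebf factors controls cerebellar and fat cell development, had 6 reads in library 1 and 3 in library 2, and it was the member most evenly covered among those with more than 5 reads. Zfp366, a regulator of dendritic cells, had 7 reads in library 1 alone. Zfp516, which activates brown fat genes, and Zfp106, an RNA-binding protein of motor neurons, had 5 reads each in library 1 alone. All of these had more reads in library 1.

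Zfp280c on the X chromosome had 3 reads in library 1 and 2 in library 2. Zfp277, which acts with Polycomb proteins at the Cdkn2a locus, had 1 and 2 reads in libraries 1 and 2, and Zfp507 had 3 in library 2 alone. Zfp12, Zfp263, Zfp442 and Zscan20 had 2 reads in library 1 and 1 in library 2 each. The order of these genes cannot be told from such counts.

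Of the 13 members with 2 reads in all, 5 had 1 read in each library: Zfp385a, a p53 cofactor, Zfp462, a chromatin protein of embryonic stem cells, Zfp521, which promotes the neural fate of embryonic stem cells, Zfp65 and Zfp831. Zfp236 had its 2 reads in library 2. Library 1 held both reads of the other 7. These were Zbtb18, which is needed for cortical neurons, Zfp207, a kinetochore protein that binds Bub3, Zfp292, whose human gene is mutated in developmental disorders, and Zfp1, Zfp120, Zfp180 and Zfp280d. At this level Y-linked genes were also listed.

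The 42 members with 1 read were divided between library 1 (20 genes) and library 2 (22 genes). Those of library 1 included Zfp609, a partner of the cohesin loader Nipbl in cortical neurons, Zfp804a, Zfp451, a SUMO ligase, Zfp638, which in human cells silences unintegrated retroviral DNA, Zfp622, a ribosome maturation factor, and Zfp341, whose human counterpart activates STAT3. The others of library 1 were Zbtb10, Zfp185, Zfp235, Zfp385b, Zfp607, Zfp644, Zfp710, Zfp81, Zfp870, Zfp874b, Zfp954, Zfp960, Zfp964 and Zkscan4. Zfp185 is a LIM domain protein of the actin cytoskeleton and shares only the symbol with this family.

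Those of library 2 included Zfp746, a substrate of parkin, Zfp69, a susceptibility gene for diabetes in mice, Zfp91, a regulator of NF-kappaB signalling, Zfp687, whose human counterpart forms a complex with that of Zfp532, Zfp608, a relative of Zfp609, and Zscan21, a factor of cerebellar granule neuron precursors. The others of library 2 were Zbtb8a, Zbtb11, Zbtb40, Zfp30, Zfp37, Zfp365, Zfp438, Zfp600, Zfp605, Zfp647, Zfp667, Zfp729a, Zfp786, Zfp808, Zfp959 and Zfp963. Of the 42 genes, 32 had a single redundant read as well. Among all listed genes with 1 nonredundant read in a library, that held for 76.9% in library 1 and 74.0% in library 2.

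By symbol, the reads lay almost wholly in Zfp genes. These were 68 of the 76 members, with 782 reads in library 1 and 1038 in library 2. The 5 Zbtb genes, Zbtb8a, Zbtb10, Zbtb11, Zbtb18 and Zbtb40, summed to 3 reads in each library, and none was in both. Zscan20 and Zscan21 summed to 2 reads in each library, and Zkscan4 had 1 read in library 1. Among annotated coding genes, 5 of 39 Zbtb, 2 of 16 Zscan and 1 of 11 Zkscan genes were listed in a library, against 74 of 395 Zfp genes, a count that includes 6 genes which the tables give under older names. In GRCm38.p6 these classes have median lengths of 18.3, 11.7, 17.9 and 18.0 kb. Whether the classes differ was not tested.

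The share of members with several reads was set beside that of all listed genes. In library 1, 22 of 50 members had 2 or more reads, or 44.0% (30 to 58.7), beside 46.3% of all listed genes. There, 5 members (10.0%, 3.33 to 21.8) had 10 or more, beside 11.9% of all. In library 2, 11 of 44 members had 2 or more reads, or 25.0% (13.2 to 40.3), beside 40.3% of all, which is the upper end of the members' interval. With 10 or more reads there were 5 members (11.4%, 3.79 to 24.6), beside 9.28% of all. All 5 of these had over 50 reads, so the members of library 2 were either well covered or had at most 3 reads. That leaves 0 of 44 members at 4 to 94 reads, beside 496 of all 3168 listed genes. These bounds were taken from the members' own counts. The 0 thus follows from the choice of bounds and cannot be weighed against the count of all genes. The gap depends on the symbol rule, since Zfp982, listed under the older name Gm13152, had 9 reads in library 2.

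**Figure D2:**
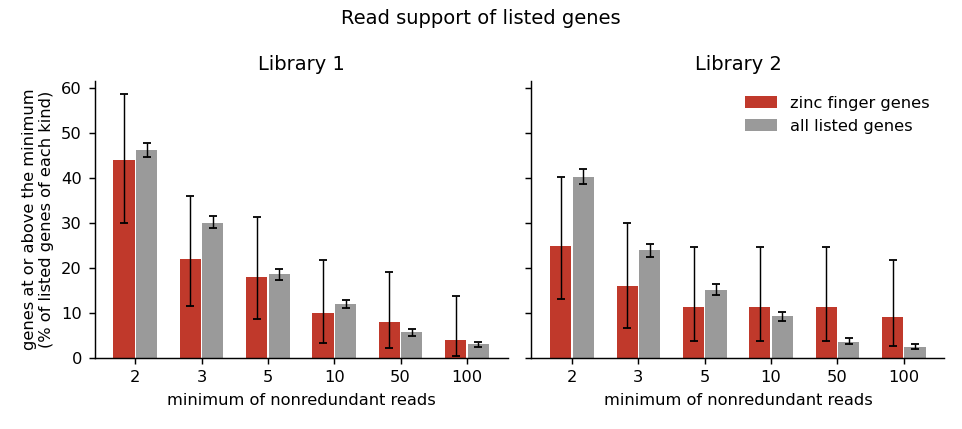
Share of listed genes at or above a minimum of nonredundant reads, for zinc finger genes (red, 50 in library 1 and 44 in library 2) and all listed genes (grey, 4184 and 3168); bars are shares and whiskers exact 95% intervals. In library 2 the red bar is lower at 2 reads (25.0% against 40.3%) and higher at 50 reads (11.4% against 3.60%).

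The members took 788 nonredundant reads, or 1.42%, of library 1 and 1043 reads, or 2.14%, of library 2. By redundant reads the shares were 1.92% of library 1 and 0.707% of library 2, so the order of the libraries turned. In library 1 the 5 leading genes held 90% of the members' reads and the other 45 genes held 79 reads. In library 2 the 5 leading genes held 95.5% and the other 39 genes held 47 reads. Without the 5 leading genes the members took 0.142% of library 1 and 0.0964% of library 2. The sum of the family thus stands for few genes. As genes, the members were 1.2% of those listed in library 1 (0.888 to 1.57) and 1.39% of those in library 2 (1.01 to 1.86).

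Most genes of this symbol family had no read. RefSeq holds 468 genes with a curated transcript and a member symbol, and 55 of them, or 11.8% (8.98 to 15), were listed in library 1, beside 15.9% of all 26216 such genes. In library 2 the count was 47, or 10.0% (7.47 to 13.1), beside 12.1% of all. Among protein coding genes the members' shares were 11.9% and 10.2%, against 19.8% and 15% of all 21027 coding genes.

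Members differed widely in annotated length. The coding genes with a member symbol had a median length of 17.9 kb, close to the 17.7 kb of all coding genes, but 5.42% of them were 100 kb or longer, against 11.4% of all. Listed members had a median of 33.1 kb and the 10 with 10 or more reads a median of 170 kb. Those in neither library had a median of 16.0 kb. For all genes of any kind with 10 or more reads in a library, the median was 125 kb. Zfp804b is 575 kb long, Zfp536 456 kb, Zfp407 382 kb, Zfp704 183 kb, Zfp618 174 kb, Zfp827 166 kb and Zfp532 109 kb. Zfp64 (62.3 kb), Zfp708 (28.6 kb) and Zfp958 (19.4 kb) were the exceptions among well-covered members.

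The shares were also taken within classes of length, at 1 or more reads. Under 20 kb, 4.26% of the 258 coding members were listed in library 1 (2.15 to 7.50) and 3.49% in library 2 (1.61 to 6.52), against 4.92% and 3.23% of all. From 20 to 50 kb, 11.6% of 155 were listed in library 1 (7.03 to 17.7), below the 20.0% of all, and 12.9% in library 2 (8.06 to 19.2), against 15.7% of all. From 50 to 100 kb the shares were 43.5% and 21.7% of 23 members, against 38.8% and 27.6%. At 100 kb or more, 64.0% and 52.0% of 25 members were listed, against 69.5% and 55.5%. Of these 8 intervals of the members, that for library 1 at 20 to 50 kb left out the value of all genes. Over either library, 21.3% of the members at 20 to 50 kb were listed (15.1 to 28.6), against 30.5% of all. At a minimum of 2 reads and 100 kb or more, members had 24.0% in library 1 (9.36 to 45.1), against 47.1% of all. In library 2 they had 24.0% (9.36 to 45.1), against 32.4% of all. The class of 50 to 100 kb went the other way at this minimum. Members there had 30.4% in library 1 (13.2 to 52.9), against 16% of all, and 17.4% in library 2 (4.95 to 38.8), against 10% of all. For annotated genes of 50 kb or more, the shares at 2 reads were 27.1% of members against 29.3% of all in library 1. In library 2 they were 20.8% against 19.7%.

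**Figure D3:**
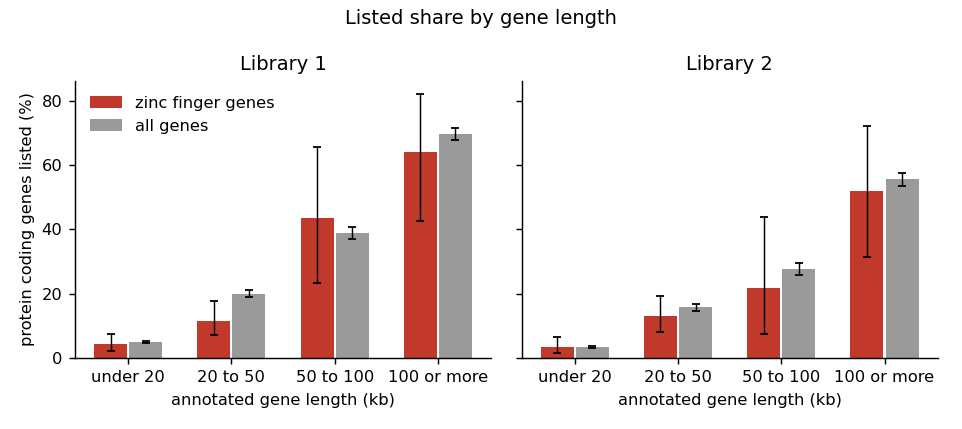
Share of annotated protein coding genes with at least 1 nonredundant read, by annotated gene length in kb, for genes with a zinc finger symbol of the rule (red) and all genes (grey); whiskers are exact 95% intervals. Both rise with length, and in library 1 the red bar is lower at 20 to 50 kb (11.6% against 20.0%).

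Of the 20 longest coding genes with a member symbol, 14 were listed and 6 had 10 or more reads in a library. Among all coding genes of 100 kb or more, 80.0% were listed in a library and 17.5% had 10 or more reads. For the 25 members of that length the shares were 72.0% (50.6 to 87.9) and 28.0% (12.1 to 49.4). Zbtb20, at 759 kb the longest and a regulator of hippocampal neurons, was listed in neither library. Zbtb7c (328 kb), Zfp978 (267 kb), Zfp469 (230 kb), Zfp800 (187 kb) and Zfp148 (123 kb) were not listed either. Other long members had few reads: Zfp385b (407 kb) and Zfp804a (210 kb) had 1 read in library 1, and Zfp521 (286 kb) had 1 in each library. The order of these genes by length thus differed from their order by reads, and the relation of length to read count was not tested.

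The listed share of the family was compared with that of all coding genes on each chromosome, without a test of the differences. Chromosome 7 holds 104 of the annotated coding genes, and 11 were listed in a library, or 10.6% (5.40 to 18.1), against 19.1% of all coding genes there. Chromosome 17 holds 51, of which 4 were listed (7.84%, 2.18 to 18.9), against 22.1% of all. On chromosome 18, 7 of 13 were listed (53.8%, 25.1 to 80.8), against 34.3% of all. On chromosome 11, 1 of 24 was listed (4.17%, 0.105 to 21.1), against 24.0% of all, and on chromosome 9, 2 of 23 (8.70%, 1.07 to 28.0), against 28.8% of all. Chromosome 4 had the most listed genes, 12 of 34 (35.3%, 19.7 to 53.5), against 27.7% of all. The annotated members had median lengths of 14.5 kb on chromosome 7, 17.9 kb on 17, 15.9 kb on 11, 24.7 kb on 9, 28.4 kb on 4 and 99.3 kb on 18. The shares did not follow these medians throughout, since chromosomes 2, 8 and 15, with medians of 14.5, 13.0 and 12.2 kb, had 27.3%, 24.0% and 27.3% of their members listed, against 24.6%, 25.8% and 25.5% of all coding genes.

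**Figure D4:**
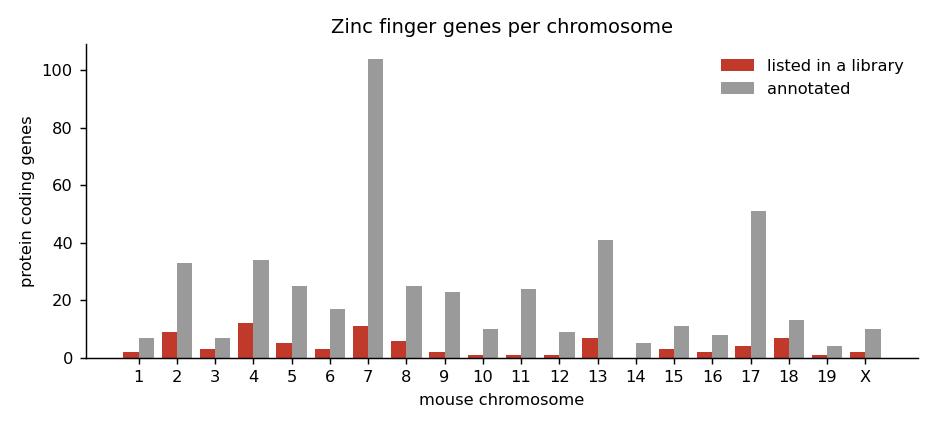
Number of protein coding genes with a zinc finger symbol of the rule per mouse chromosome, listed in a library (red) and annotated (grey). Chromosome 7 has 104 annotated and 11 listed genes, whereas chromosome 18 has 13 and 7.

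The zinc finger genes were also divided by their neighbours on the chromosome. Of 245 coding genes whose direct coding neighbour also had a member symbol, 33 were listed in a library, or 13.5% (9.46 to 18.4). Of 211 with no such neighbour, 49 were listed, or 23.2% (17.7 to 29.5). At under 20 kb the shares were 7.59% and 6.36%, and at 20 to 50 kb 20.0% and 23.8%. At 50 kb or more they were 40.0% of 10 and 71.1% of 38 genes. The difference was not tested. Zfp704 and Zfp708 were the genes with such a neighbour and 10 or more reads. Near copies in the clusters, and the way the authors placed reads among them, could not be examined here.

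The copy number of reads differed widely among well-covered members. In library 1, Zfp827 had 9983 redundant reads, or 36.0 per nonredundant read, Zfp804b had 5315 (18.6) and Zfp407 had 1247 (15.8). In the same library Zfp708 had 72 (1.26) and Zfp536 had 11 (1.10). The median over all genes with 10 or more reads was 4.53, and 10% of them were below 1.33. Zfp708 and Zfp536 thus had almost no copies, and the other genes had many.

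In library 2, Zfp618 had 5219 redundant reads (13.8 per nonredundant read), Zfp958 had 2015 (11.9), Zfp532 had 872 (9.18), Zfp64 had 540 (2.92) and Zfp704 had 231 (1.37). The median over all genes with 10 or more reads there was 4.55. Among weakly covered members, Zfp280c had 71 redundant reads in library 1 and 103 in library 2, on 3 and 2 nonredundant reads. Zfp462 had 142 redundant reads in library 2 on 1 nonredundant read. Ranks by redundant reads therefore differ from those by nonredundant reads. The 2 counts were equal in 29 of 50 members in library 1 (58.0%, against 56.4% of all listed genes) and in 26 of 44 in library 2 (59.1%, against 56.2%).

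**Figure D5:**
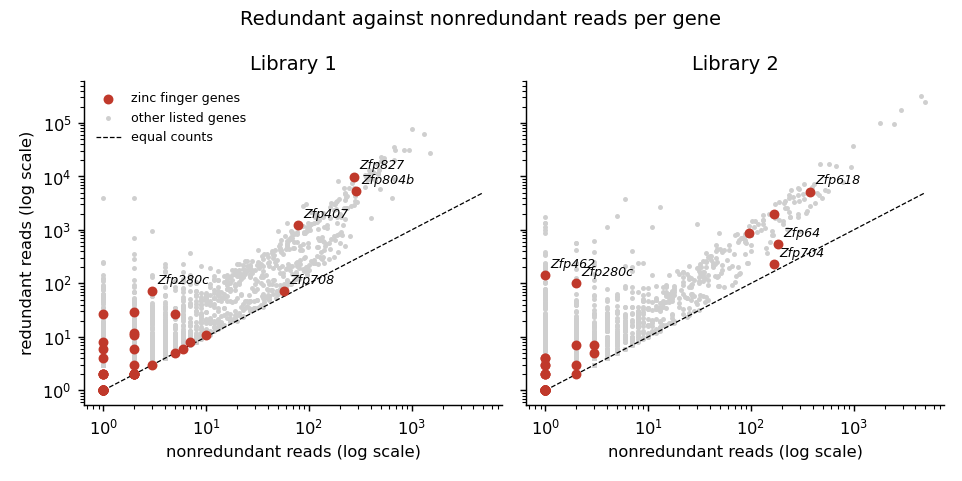
Redundant against nonredundant reads per gene (log axes) in library 1 and library 2, for zinc finger genes (red) and other listed genes (grey); the dashed line marks equal counts. Zfp827 (9983 redundant reads) lies far above the line and Zfp708 (72) and Zfp704 (231) lie near it.

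Members with known roles were also grouped, by lists that take no account of length. Of 16 neural genes, 11 were listed in a library (68.8%, 41.3 to 89.0), against 21.4% of all annotated genes. The list has a median length of 120 kb but runs from 4.38 kb (Zbtb45) to 759 kb (Zbtb20). Of all annotated genes, 62.4% of those of 50 kb or more and 76.4% of those of 100 kb or more were listed. Both values lie within the interval of the list. The list was chosen with earlier results of these data known. It mixes short and long genes and matches neither class, and the difference from all genes was not tested. Reads of the neural genes summed to 388 in library 1 and 9 in library 2, and Zfp804b gave 286 of the 388. Besides Zfp804b, Zfp407, Zfp536 and Zfp423, the listed ones had at most 2 reads in a library: Zbtb18, Zfp292, Zfp365, Zfp521, Zfp608, Zfp609 and Zfp804a.

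Of 24 genes of pluripotency, imprinting and retroelement silencing, 2 were listed (8.33%, 1.03 to 27.0), namely Zfp708 and Zfp462. The list's median length is 13.9 kb, and of all annotated genes 21.4% were listed, or 5.46% of those under 20 kb. The imprint regulators Zfp57 and Zfp445, the pluripotency gene Zfp42 and the Zscan4 genes of 2-cell-like cells had no read in either library. Of 11 Zbtb genes of lymphoid cells or methylated DNA, with a median of 18.1 kb, 0 were listed (upper bound 28.5%). Of 4 Zfp36 genes, which bind mRNA through another type of finger and have a median of 3.87 kb, 0 were listed (upper bound 60.2%). With lists of this size, a count of 0 or 2 does not show that insertions were missing.

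Partners of these proteins were also looked up. Of 23 partners of KRAB zinc finger proteins, 9 were listed (39.1%, 19.7 to 61.5), against 21.4% of all annotated genes. The median length of these partners is 34.6 kb, and of all annotated genes of 20 to 50 kb 27.2% were listed. The demethylase gene Kdm1a led with 2 reads in library 1 and 22 in library 2. Atrx, a remodeller of heterochromatin, had 4 and 1, Pphln1, a subunit of the HUSH silencing complex, had 1 and 3, and Setdb1 had 1 in each. Trim28 was not listed. Of 16 partners of BTB zinc finger proteins, 5 were listed (31.2%, 11.0 to 58.7), against the same 21.4%. Their median length is 71.2 kb, and of all annotated genes of 50 to 100 kb 49.2% were listed. The corepressor gene Ctbp1 had 5 reads in library 1 and 4 in library 2, Ncor1 had 4 in library 1, Hdac4 had 1 in each and Sin3a had 1 in library 1. No partner but Kdm1a had 10 or more reads.

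Of 109 zinc finger genes of other names, such as the Klf, Gli and Zeb families, 33 were listed (30.3%, 21.8 to 39.8), against 21.4% of all annotated genes and 26.6% of coding genes, with a median length of 25.2 kb. In this list 5 genes had 10 or more reads in a library. Prdm16, which maintains neural stem cells, had 15 reads in library 1 and 126 in library 2. Klf13 had 61 and Hivep1 33 in library 1 alone, Zeb2, a factor of neural crest and neurons, had 16 and 2, and Ikzf1, a lymphoid factor, had 13 in library 2 alone. Prdm16 thus reached 10 reads in both libraries.

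Of the 76 members, 14 overlap another annotated gene, and for 3 of these the overlapping gene was listed too: Rslcan18 for Zfp708, Rpl24 for Zbtb11 and Pi4kb for Zfp687. Pi4kb had 2 reads and Rpl24 had 1, both in library 1, whereas Zbtb11 and Zfp687 had their single reads in library 2. Which gene such reads belong to is uncertain, since the use of strand in counting is not given in the sources used here.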

How the data were processed

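The deposited tables give, per the file headers, whole-number counts of nonredundant and redundant reads per gene, not normalized, for 2 libraries of 2 pooled samples. CASAVA, BWA and the build mm9 were used, per the submitters' processing notes. The rule that assigned reads to genes, and the rule for calling a read nonredundant, were not stated.

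Members were found by their symbol. All 76 were matched by transcript to RefSeq genes of GRCm38.p6, which served for chromosomes, lengths and neighbours, and 5610 of the 5614 listed genes were matched. Coordinates are printed for promoter windows only. Shares have exact Clopper-Pearson 95% intervals, and ratios of read shares between libraries have exact conditional ones (SciPy 1.17.1, pandas 2.3.3, Python 3.11.15). For a ratio, a gene not listed was set to 3 reads, which is 0.00541% of library 1 and 0.00615% of library 2. Ratios set in this way have no interval. Genes with at most 3 reads in each library were not compared. The fold calls were tested on simulated data with random counting error only. Such data lack PCR copies, so this checked the calculation and not the calls made here. No significance test was made, since each library is 1 table; whether its 2 samples came from separate cultures is not stated.

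Named genes are the 30 with most summed reads, up to 15 in both libraries, up to 5 per symbol class and per list of other genes, all listed genes of the member lists, and the 3 with most redundant per nonredundant reads; the other members are named to account for all 76. The members and the gene lists were chosen with earlier results of these data known. Zinc finger patterns and near copies of proteins were planned but not analysed here, as no protein sequences were used.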

Additional observations from a re-analysis of the deposited data

How the results depend on the processing

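Of 49 recomputed values, 20 stayed within 1.5 times the count, or within the interval of the share, and 29 did not. Members listed (50 in library 1, 44 in library 2) came to 22 and 11 at a minimum of 2 reads and to 5 and 5 at 10 reads, and those in both libraries (18) to 4 at 2 reads. Members were 0.861% of the genes with 2 or more reads in library 2, against 1.39% of all listed. Their share of reads (1.42% and 2.14%) was 1.92% and 0.707% in redundant reads, so the order of the libraries turned. It was 1.70% and 3.71% without the 10 genes with most reads in the total, 0.905% and 1.36% without the leading member, and 0.142% and 0.0964% without the 5 leading members. Members with 2 or more reads (22 and 11) were 11 and 7 at 3 or more, and 19 in library 2 by redundant reads. Members with 10 or more reads in library 1 were 11, not 5, by redundant reads, and those with a 10-fold higher share in library 1 were 8, not 4. The listed share of annotated genes (11.8% and 10.0%) was 4.91% and 2.56% at 2 reads. By length it was 4.17% and 3.41% under 20 kb, 43.5% and 21.7% at 50 to 100 kb, 64.0% and 52.0% at 100 kb or more, and 54.2% and 37.5% at 50 kb or more. The minimum of 3 reads, the sum without 5 members and the class of 50 kb or more were chosen after seeing the data. The alternatives that need protein sequences (finger patterns, near-identical copies) were not run. No paired analysis was possible because each table pools its 2 samples and carries no replicate column, and for the same reason no sample could be left out. Most members had few reads, and a gene with 1 read cannot be told from one at the level of Y-linked genes.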

Other observations

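Another 6 listed genes have a current RefSeq symbol of the Zfp series but an older name in the tables, so the rule did not take them as members. Zfp982 (listed as Gm13152) had 4 reads in library 1 and 9 in library 2, and its lower count is above the 3 reads that no member exceeded in its lower library. Zfp979 (2610305D13Rik) had 1 read in each library. Zfp607b (C030039L03Rik), Zfp981 (Gm13247) and Zfp967 (Gm14431) had 1 read in library 1, and Zfp976 (9830147E19Rik) had 1 in library 2.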
